A study of Mus musculus with 34 samples.

Results

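Among the dermal mast cells (MCs) sorted from mouse ear skin, the cells with the most transcripts of 4 granule proteases were compared with the cells with the fewest. The proteases were Cma1, Mcpt4, Tpsb2 and Cpa3, and a cell's score was their sum per 10000 transcripts outside predicted genes named Gm plus a number. In each of 30 libraries the top 25% of the cells by this score were called protease-rich and the bottom 25% protease-poor, which gave 539 rich and 539 poor cells, 1078 of the 2196 MCs with over 1000 such transcripts. The series held 2503 cells over that minimum in all. Because the cells were chosen by the measured levels of the 4 proteases, the difference of these genes between the classes is part of the choice and is given as a description, and tests were kept to other genes or to classes cut without the gene in question.

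MCs of connective tissue store proteases, histamine and heparin in secretory granules and release them when antigen crosslinks IgE on the high-affinity receptor FcεRI, or when basic compounds act on the receptor MRGPRB2. Cma1 encodes the chymase MCPT5, Mcpt4 a second chymase, Tpsb2 the tryptase MCPT6 and Cpa3 carboxypeptidase A3. In the granule these proteases are held by the negatively charged heparin chains of serglycin, and their transcripts are among the most abundant of a mature MC.

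The cells came from male mice aged 7 weeks, 3 wild-type (WT) mice that were Mcpt5-cre+/− Tln1+/+ and 3 Tln1ΔMC littermates that were Mcpt5-cre+/− Tln1fl/fl. Both groups carried the Cre driver, which acts in connective tissue MCs, and the reporter R26LSL:YFP, and were untreated. Their strain is labelled C57BL/6J, and the study's methods place the Mcpt5-cre Tln1fl/fl crosses with this reporter on its albino variant, Tyr c-2J/c-2J. CD45+Lin−YFP+ cells were sorted, with doublets excluded in the gate, and sequenced by mCEL-Seq2, a plate method that counts unique molecular identifiers (UMIs). Each mouse gave 4 libraries, except Tln1ΔMC mouse 3 with 10, and 4 further libraries of Myh11GFP cells of ear skin served as a background that should lack MC proteases. Libraries held 41 to 96 MCs over the minimum. Where the labels name 2760 sorted cells in these libraries, 2196 wells passed. Tln1, the targeted gene, had 444 to 986 transcripts per 1000000 in the 9 sums (poor, middle and rich cells of each mouse) of WT mice and 289 to 735 in those of Tln1ΔMC mice, so that its level overlapped between genotypes. In the data used here the genotypes therefore rest on the sample names alone. The paper reports reduced talin protein in cultured MCs of this knockout.

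Library 3 of WT mouse 2 stood apart from the others. Macrophage and keratinocyte markers made up 1.37% of the transcripts of an average cell in its 77 cells, against 0.442% in the next library. Total counts of called genes are therefore given with and without it. They are also given with and without the 85 cells of any library with at least 1% of transcripts from markers of other cell types. These were markers of macrophages, fibroblasts, keratinocytes, endothelium, mural cells, T cells, melanocytes and Schwann cells, or red blood cells. Counts in gene lists are given without those cells in many cases, and not without that library.

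The score formed a continuous range in every mouse. Its median was 666, 732 and 788 per 10000 transcripts in WT mice 1, 2 and 3, and 640.2, 511 and 548 in Tln1ΔMC mice 1, 2 and 3. The median of the rich cells was 2.174 times that of the poor cells in the median library, from 1.67 to 3.01 times over the 30 libraries. The lowest rich cell of a library scored 588.5 to 1020.4 and the highest cell just below it 578 to 1018.5. At the lower limit, the highest poor cell scored 335 to 717 and the next cell above it 337 to 736. Within 10% of the upper limit of their library lay 492 cells (22.4%), and within 10% of the lower limit 424 cells (19.3%), so the classes are the ends of a range and not separate cell types. Of the 307 Myh11GFP cells, the median score was 0 and the highest 2.01, below the lowest MC score of 16.4.

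**Figure D1:**
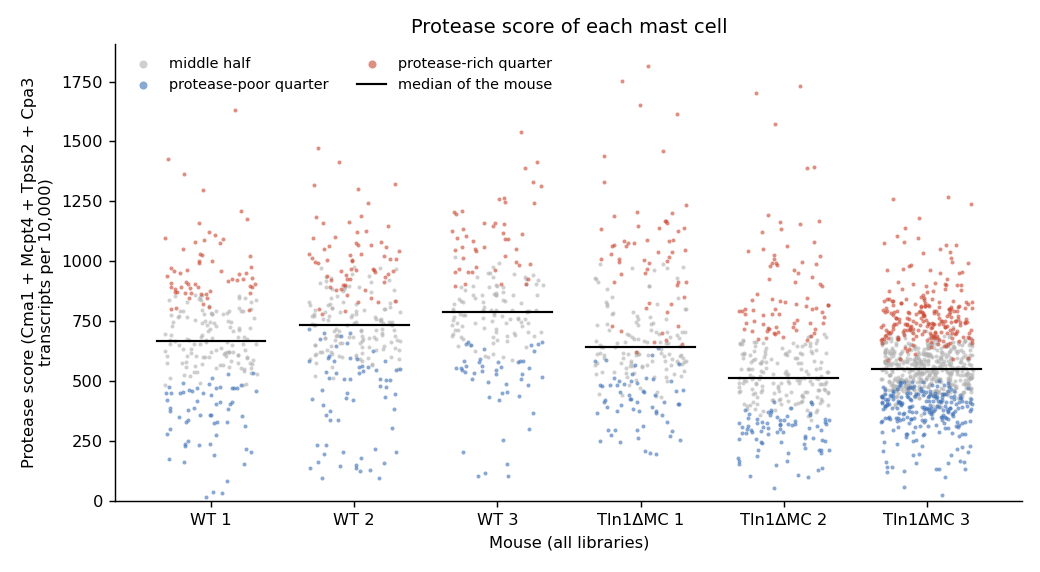
Protease score of each MC (Cma1, Mcpt4, Tpsb2 and Cpa3 transcripts per 10000, linear axis) by mouse, with the protease-poor cells in blue, the middle cells in grey, the protease-rich cells in red and the median of the mouse as a black line. Scores ran from 16.4 to 1817 without a gap between the classes, and the limits differ between mice because each library was cut on its own cells.

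Most protease-poor cells had transcripts of Cpa3 and Mcpt4, both part of the score, and of Hdc, while other MC markers were found in fewer of them. When cells were reduced by random draws to 1000 UMIs each, Cpa3 was detected in 97.2% of 538 poor cells (exact 95% binomial interval 95.4% to 98.4%) and in 100% of 539 rich cells, and Mcpt4 in 100% of both. One poor cell was too shallow to thin. Of 307 Myh11GFP cells treated the same way, 0 had a UMI of either gene, which allows a share of up to 0.977% of cells with a UMI at this depth, and before thinning 1 of them (0.326%) had a Cpa3 UMI. Hdc, the histamine-forming enzyme and no part of the score, had a UMI in 92.9% of poor and 95.9% of rich cells. Markers outside the score that were found in fewer poor than rich cells included Kit (49.4% and 72.4%), Fcer1a (11.2% and 29.5%) and Ms4a2 (44.6% and 64.2%). The shares were 26.8% and 47.5% for Mrgprb2, 83.8% and 97.8% for Srgn, and 70.3% and 74.4% for Tpsab1. The intervals pool cells over mice and cover counting error only.

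The 4 proteases went together across cells. Within libraries, the Spearman correlation between a pair of them was highest for Cma1 and Cpa3, with a median of 0.58 over 30 libraries, and lowest for Tpsb2 and Cpa3, with a median of 0.30. These values describe cells that share libraries and totals. In the classes as chosen, the level of Cma1 in rich cells was 3.29 to 4.49 times that in poor cells over the 6 mice, that of Mcpt4 2.59 to 2.89 times and that of Cpa3 3.15 to 4.42 times. When each UMI was assigned at random to 1 of 2 sets and the score was taken from one set only, the molecules of the other set still differed by 3.22 to 4.13 times for Cma1, 2.31 to 2.67 times for Mcpt4, 2.82 to 3.90 times for Tpsb2 and 2.72 to 3.71 times for Cpa3. These ratios describe the choice and carry no test.

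Cma1 and Mcpt4 lie in the chymase locus on chromosome 14 of GRCm38, from 55941451 to 55944675 and from 56059744 to 56062310, Tpsb2 lies on chromosome 17 from 25366308 to 25368096, and Cpa3 on chromosome 3 from 20215616 to 20242209. The receptor genes Fcer1a and Mrgprb2 were added as examples of the many genes that rose with the proteases. The 250 bases before a start site listed in the RefSeq promoter table (GRCm38.p6) are shown for them and for the 3 proteases that had an entry. For Cpa3 and Fcer1a that start lies inside the outermost span of the gene, so that the window overlaps the span. Each runs 5′ to 3′ on the strand of its gene, and capitals mark the GATA motif, searched as GATAA and as its reverse complement TTATC with no other motif searched.
Cma1, chr14:55944676-55944925, minus strand: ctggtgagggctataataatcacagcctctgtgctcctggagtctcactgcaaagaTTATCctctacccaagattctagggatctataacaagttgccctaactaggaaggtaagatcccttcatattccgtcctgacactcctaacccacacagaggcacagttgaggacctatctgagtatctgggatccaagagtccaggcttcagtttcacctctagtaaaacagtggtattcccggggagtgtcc
Mcpt4, chr14:56062311-56062560, minus strand: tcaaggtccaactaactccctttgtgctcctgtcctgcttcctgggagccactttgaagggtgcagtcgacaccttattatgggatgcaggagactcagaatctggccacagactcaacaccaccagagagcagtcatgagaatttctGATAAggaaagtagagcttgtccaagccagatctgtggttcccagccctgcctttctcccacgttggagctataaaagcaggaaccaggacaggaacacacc
Cpa3, chr3:20242182-20242431, minus strand: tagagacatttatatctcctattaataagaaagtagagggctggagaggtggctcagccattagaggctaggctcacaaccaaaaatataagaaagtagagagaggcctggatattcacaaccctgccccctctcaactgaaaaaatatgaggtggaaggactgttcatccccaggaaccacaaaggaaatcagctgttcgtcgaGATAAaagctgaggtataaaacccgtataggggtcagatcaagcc
Fcer1a, chr1:173227230-173227479, minus strand: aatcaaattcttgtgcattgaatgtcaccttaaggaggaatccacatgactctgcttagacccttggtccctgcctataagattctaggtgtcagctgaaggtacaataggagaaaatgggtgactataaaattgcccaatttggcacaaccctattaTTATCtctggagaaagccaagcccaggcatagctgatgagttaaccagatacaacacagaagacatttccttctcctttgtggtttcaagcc
Mrgprb2, chr7:48558087-48558336, minus strand: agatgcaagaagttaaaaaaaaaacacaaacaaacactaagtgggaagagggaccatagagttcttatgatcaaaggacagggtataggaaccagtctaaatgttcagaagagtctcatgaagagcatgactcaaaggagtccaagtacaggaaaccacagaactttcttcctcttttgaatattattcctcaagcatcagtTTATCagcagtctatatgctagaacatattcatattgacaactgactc
Each of the 5 windows held 1 such match. At least 1 match was present in 23% of the 27025 windows of the table and in 13.6% of the 5064 that belong to tested genes, in 17.6% of 153 for genes called higher in rich cells and in 18.6% of 172 for genes called lower. The match is a description of the letters in these windows.

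To ask whether each protease followed the others by more than the choice of cells, the classes were cut on the other 3 proteases, and the gene left out was tested across the 6 mice. All 4 left-out proteases were higher in the rich class in 6 of 6 mice. Levels here and in what follows are normalised transcripts, that is, the sum over the cells of a class and mouse per 1000000 transcripts, scaled by trimmed means (TMM), and fold changes are on the log2(level + 1) scale.

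Left-out Cma1 had 7898, 6334 and 8280.1 normalised transcripts in the poor cells of WT mice 1, 2 and 3 and 8435, 8351 and 7365 in those of Tln1ΔMC mice 1, 2 and 3. In rich cells it had 22586, 22357.5 and 24100.4 in the WT mice and 20852, 20938 and 21218 in the Tln1ΔMC mice. The classes did not overlap. The log2 fold change was 1.51 (SE 0.15, n = 6 mice, limma adjusted p = 0.000749), beside 6.21% of 6508 genes called in either direction in these classes.

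Left-out Tpsb2 had 3517, 4412.5 and 5485 normalised transcripts in the poor cells of the WT mice and 6824, 4303 and 4164 in those of the Tln1ΔMC mice. Rich cells had 9907, 11940.4 and 14131 in the WT mice and 16335, 11069 and 9944 in the Tln1ΔMC mice, again without overlap. Tpsb2 differed by a log2 fold change of 1.36 (SE 0.13, n = 6 mice, limma adjusted p = 0.000567), with 7.74% of genes called in these classes. Tpsb2 has a near-identical neighbour, Tpsab1, and reads that matched several places were discarded by the authors, so the level of either may be too low.

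Left-out Cpa3 had 8799, 8287 and 9111 normalised transcripts in the poor cells of the WT mice and 10082, 7849.5 and 6661 in those of the Tln1ΔMC mice. In rich cells it had 21750.4, 21624 and 21307.5 in the WT mice and 25651, 20790.2 and 15333 in the Tln1ΔMC mice, with Tln1ΔMC mouse 3 lowest in both classes. For Cpa3 the log2 fold change was 1.31 (SE 0.13, n = 6 mice, limma adjusted p = 0.00043), with 4.53% of genes called.

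Left-out Mcpt4 had the smallest fold. It had 16737, 23271 and 26109 normalised transcripts in the poor cells of the WT mice and 27934, 26851 and 14505 in those of the Tln1ΔMC mice. Rich cells had 36991, 47753 and 54106 in the WT mice and 51133, 40815 and 31143 in the Tln1ΔMC mice. For Mcpt4 the log2 fold change was 0.97 (SE 0.20, n = 6 mice, limma adjusted p = 0.0127), with 8.05% of genes called. Its adjusted p was 0.0501 without WT mouse 1, 0.0901 without the mouse as a block and 0.144 in cells under the median Gm share of their library, where that of Cpa3 was 0.0718.

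The exact sign-flip permutation test over the 6 mice gave p = 0.03125 for each of the 4 proteases, two-sided, the smallest value it can give. In each mouse the middle cells lay between the poor and the rich cells for all 4 genes. When the 85 cells with other cell types' markers were left out, the log2 fold changes were 1.17 for Cma1 (adjusted p = 1.81e-05), 0.63 for Mcpt4 (0.00664), 1.06 for Tpsb2 (5.47e-05) and 1.02 for Cpa3 (7.03e-05), still higher in 6 of 6 mice.

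**Figure D2:**
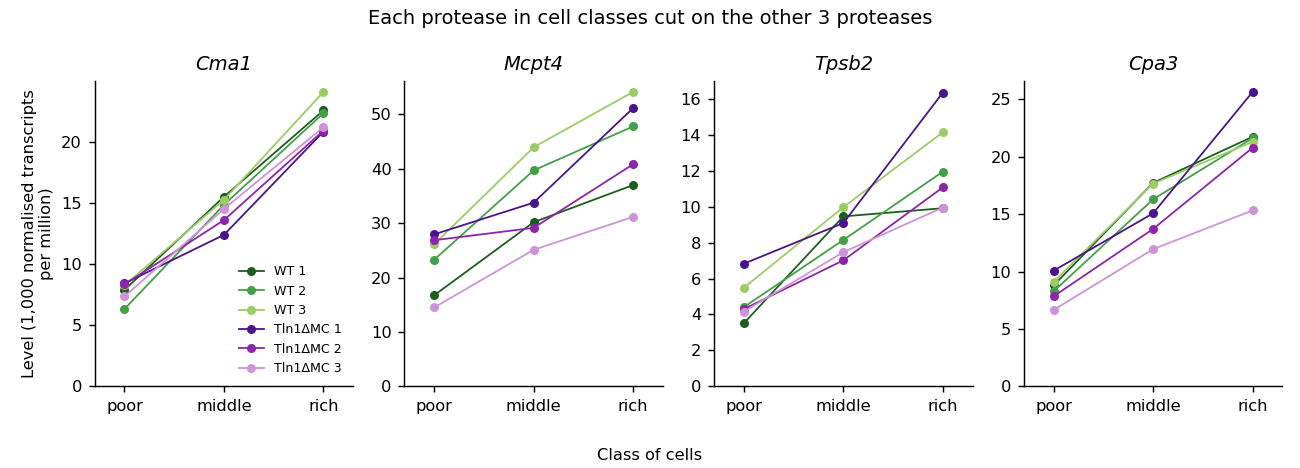
Normalised level of each protease (in 1000 transcripts per 1000000, linear axes from 0) in poor, middle and rich cells cut on the other 3 proteases, with 1 line per mouse, WT in green and Tln1ΔMC in purple. Every line rises from poor to rich, from 6334 to 8435 up to 20852 to 24100.4 for Cma1.

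The classes also differed in properties that the score does not name. Rich cells had a lower share of Gm transcripts in 6 of 6 mice, with medians per mouse of 7.09% to 35.2% against 9.21% to 70.7% in poor cells. Within libraries the Spearman correlation of the score with that share was below 0 in 30 of 30, with a median of -0.32. By the median cell, rich cells were also deeper, with 2293 to 5623 transcripts per cell outside Gm genes over the mice against 1844 to 4049, although in WT mouse 3 the medians of both classes were 2293. Median genes per cell were higher in rich cells in 4 of 6 mice. Summed over equal numbers of cells, poor cells held more transcripts in WT mouse 2 (347313.4 against 262110.7), WT mouse 3 (194990 against 146770.5) and Tln1ΔMC mouse 3 (1474290.3 against 1372934.1). In the other mice the rich sums were larger. Mitochondrially encoded transcripts had medians of 8.76% to 13.9% in rich and 9.47% to 20.6% in poor cells, lower in rich cells in 6 of 6 mice. Since the score is a share of all non-Gm transcripts, any transcript that takes a large part of a cell lowers its score.

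**Figure D3:**
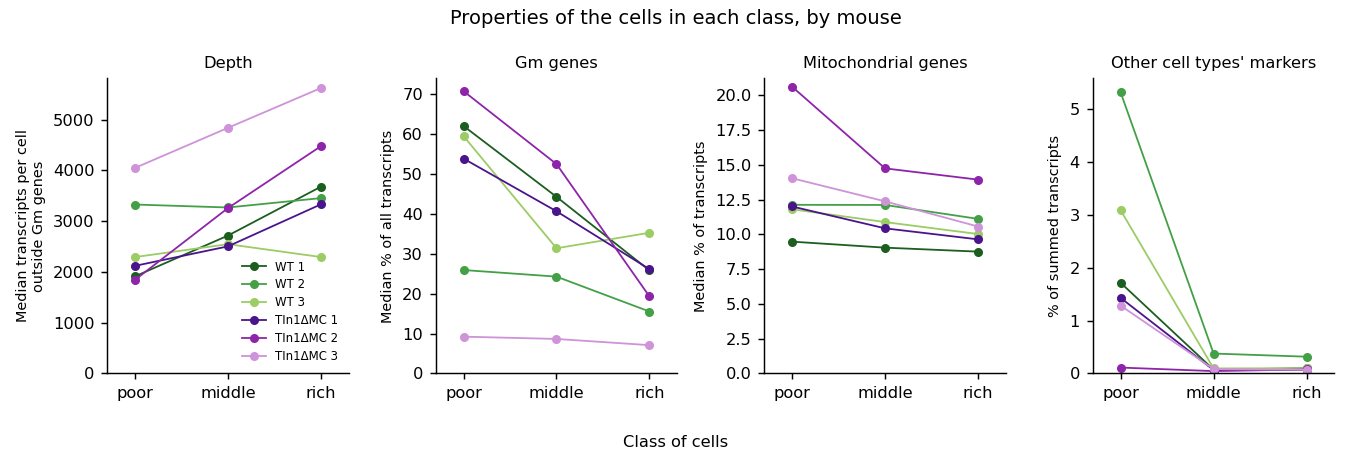
Median depth per cell, median share of Gm transcripts, median share of mitochondrially encoded transcripts and share of other cell types' marker transcripts in the summed cells, for poor, middle and rich cells, with 1 line per mouse (WT green, Tln1ΔMC purple). The Gm share falls from poor to rich in each mouse, and other cell types' markers are high in the poor sums of 5 mice and at 0.111% in Tln1ΔMC mouse 2.

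Transcripts of other cell types lay mostly in the poor class. Of the 85 cells with at least 1% of such markers, 56 were poor, 24 middle and 5 rich, although the median cell had 0.0702% in the poor and 0.0462% in the rich class. Summed over cells, all such markers made up 0.111% to 5.32% of transcripts in poor sums and 0.0656% to 0.317% in rich sums. The 12 macrophage markers had a summed level of 196 to 12659 transcripts per 1000000 in poor sums and 104 to 1672 in rich sums, with Lyz2 at 0 in both classes and Adgre1 at 0 in rich cells. Fibroblast markers had 125.5 to 31051 in poor and 135 to 706 in rich sums, none of the 10 at 0. Keratinocyte markers had 20.1 to 9698 in poor and 13.5 to 672 in rich sums, none of the 9 at 0. T cell markers had 46.1 to 138.5 in poor and 4.37 to 10.95 in rich sums, with Trac and Trbc2 at 0 in both classes and Cd3e, Cd3g and Cd2 at 0 in rich cells. Endothelial markers had 5.37 to 80.4 in poor and 5.48 to 35.95 in rich sums, mural cell markers 59.1 to 179 and 67.7 to 129.7, melanocyte and Schwann markers 17.6 to 340.3 and 6.81 to 22.5, and red blood cell markers 0 to 7358 and 0 to 489, with Emcn at 0 in poor cells, Cnn1, Mlana, Sox10 and Alas2 among those at 0 in rich cells and Hba-a2 at 0 in both. In such sums, fewer cells of a type and less RNA per cell cannot be told apart. Total counts of called genes, and many counts in gene lists, are given with and without the 85 cells.

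Across the 6559 genes tested, 203 were higher in rich cells (3.09%) and 270 were lower (4.12%), from limma with the mouse as a block and Benjamini-Hochberg adjustment at 0.05. Without the 85 cells, 206 of 5884 genes were higher (3.5%) and 341 lower (5.8%). Of the genes called higher, 111 were called in both fits, 54.7% of the first and 53.9% of the second set, and of those called lower 152 were, 56.3% and 44.6%. No gene was called in opposite directions. Without library 3 of WT mouse 2 the counts were 212 and 334. Without TMM scaling they were 376 and 224, so that 62.7% of calls were higher in place of 42.9%, and the median of all genes moved from 0.01 to 0.14. Among cells under the median Gm share of their library, 1091 cells, only Fcer1a was called higher (0.0214% of 4680 genes) and only Sparc and Col1a1 lower (0.0427%). The middle cells were at or above the rich cells in 11 of the 203 higher genes and at or below them in 32 of the 270 lower genes, and lay between the classes in the others. Rich and poor sums did not overlap for 81 of the higher and 45 of the lower genes, and for 2.36% of all genes tested.

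The subunits of the IgE receptor rose with the proteases. Fcer1a, the α chain that binds IgE, had 66.6, 111 and 219 normalised transcripts in the poor cells of WT mice 1, 2 and 3 and 122, 98.5 and 132 in those of Tln1ΔMC mice 1, 2 and 3. In rich cells it had 454, 638 and 378.5 in the WT mice and 597, 299.9 and 597 in the Tln1ΔMC mice. The rich and poor sums did not overlap, and WT mouse 3 had the highest poor sum and a rich sum below most others. The log2 fold change was 2.02 (SE 0.22, n = 6 mice, limma adjusted p = 0.0024), with higher levels in rich cells in 29 of 30 libraries. It was 1.68 without the 85 cells (adjusted p = 0.000176) and 1.85 in cells of low Gm share (adjusted p = 0.00387).

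The share of cells with an Fcer1a UMI gave the same order. In cells thinned to 1000 UMIs it was 11.2% of poor cells (exact 95% binomial interval 8.62% to 14.1%), 17.8% of middle cells and 29.5% of rich cells (25.7% to 33.55%). Before thinning the share was 27.7%, 41.3% and 59.55%, at medians of 2819, 3737 and 4487 UMIs per cell. No Myh11GFP cell had a UMI, thinned or not, at a median of 4081 UMIs.

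The signalling chains changed less. Ms4a2, the β chain, had a log2 fold change of 0.78 (SE 0.15, limma adjusted p = 0.00794), and Fcer1g, the γ chain, one of 0.75 (SE 0.13, limma adjusted p = 0.00532). Both were higher in rich cells in 6 of 6 mice, with overlapping sums, and both passed without the 85 cells at 0.37 (adjusted p = 0.0473) and 0.50 (0.014). Cd200r1, an inhibitory receptor of MCs, rose by 1.17 but did not pass without those cells (0.80, adjusted p = 0.0514). Of 21 tested genes of IgE receptor signalling, 5 were higher and 0 lower, with a median log2 fold change of 0.44 against 0.01 over all genes. The shares over all genes were 3.09% higher and 4.12% lower. In the fit without the 85 cells 3 of 21 were higher, beside 3.5% of all genes.

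Receptors for growth factors and secretagogues followed. Kit, the receptor for stem cell factor on which MC survival depends, had 1120.3, 756 and 782 normalised transcripts in the poor cells of the WT mice and 1161, 781 and 842 in those of the Tln1ΔMC mice. Rich cells had 2056, 1720.5 and 1175 in the WT mice and 1862, 1516 and 1482 in the Tln1ΔMC mice, and the classes did not overlap. Kit rose by 0.85 on the log2 scale (SE 0.13, n = 6 mice, limma adjusted p = 0.0028), 0.48 without the 85 cells (adjusted p = 0.0153) and 0.61 in cells of low Gm share (adjusted p = 0.224). Thinned Kit was found in 49.4% of poor and 72.4% of rich cells against 1.63% of Myh11GFP cells.

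Il1rl1, the receptor for IL-33, had 721, 323 and 533 normalised transcripts in the poor cells of the WT mice and 894, 979 and 561 in those of the Tln1ΔMC mice. It had 1917, 1518 and 994 in the rich cells of the WT mice and 1200.4, 1511 and 982 in those of the Tln1ΔMC mice. The lowest rich sum was just above the highest poor sum. The log2 fold change was 1.07 (SE 0.20, n = 6 mice, limma adjusted p = 0.00799) and 0.84 without the 85 cells (adjusted p = 0.00699), but 0.96 in cells of low Gm share (adjusted p = 0.192). Kit and Il1rl1 were the 2 genes called among 18 tested growth factor and cytokine receptors, whose median of 0.03 lay close to that of all genes. Among all genes 3.09% were called higher. Without the 85 cells, Kit and Il1rl1 were again the 2 higher genes, and 2 of the 18 were lower. The shares of all genes in that fit were 3.5% higher and 5.8% lower.

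Mrgprb2 encodes the receptor through which basic secretagogues activate MCs. It had 411.5, 281 and 296 normalised transcripts in the poor cells of the WT mice and 504, 359 and 311 in those of the Tln1ΔMC mice, and 911.5, 909 and 883 in the rich cells of the WT mice and 686, 827 and 636 in those of the Tln1ΔMC mice. Rich and poor sums did not overlap, and the WT mice had the 3 highest rich sums. Mrgprb2 rose by 1.18 on the log2 scale (SE 0.16, n = 6 mice, limma adjusted p = 0.00257), 0.83 without the 85 cells (adjusted p = 0.00144) and 1.13 in cells of low Gm share (adjusted p = 0.0534). Its relative Mrgprb1 rose by 0.64 (adjusted p = 0.0144) and by 0.29 without those cells (adjusted p = 0.101). Of 5 tested Mrgpr receptors these 2 were called, with a list median of 0.57, beside 3.09% of all genes called higher. In the fit without the 85 cells 1 of 5 was higher, Mrgprb2, beside 3.5% of all genes.

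Among the genes of the granule matrix, Srgn, the core protein of serglycin, rose in every library. It had 1666, 3176 and 3294 normalised transcripts in the poor cells of the WT mice and 2652, 2396 and 2597 in those of the Tln1ΔMC mice. In rich cells it had 5157, 6858 and 6981 in the WT mice and 4626, 6328 and 5218 in the Tln1ΔMC mice, without overlap. The log2 fold change was 1.17 (SE 0.14, n = 6 mice, limma adjusted p = 0.0024) and rich cells were higher in 30 of 30 libraries. It was 0.90 without the 85 cells (adjusted p = 0.000592) and 0.96 in cells of low Gm share (adjusted p = 0.0652). Enzymes that build and sulphate its heparin chains rose as well, Hs2st1 by 0.97, Papss2, which makes the sulphate donor, by 0.80 and Hs6st2 by 0.79 on the log2 scale (adjusted p = 0.0179, 0.00949 and 0.00794). All 3 passed without the 85 cells, at adjusted p from 0.0312 to 0.0411. Of 17 tested genes of serglycin and heparin synthesis, 5 were higher and 0 lower, with a median of 0.57. The shares over all genes were 3.09% higher and 4.12% lower. Without the 85 cells 4 of 17 were higher, beside 3.5% of all genes.

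Of 7 tested proteases outside the score, 3 were higher and 0 lower, with a median of 0.69, beside 3.09% higher and 4.12% lower over all genes. Ctsg, cathepsin G, had 122 to 450.2 normalised transcripts in poor sums and 336 to 816 in rich sums and rose by 1.17 (adjusted p = 0.00777), Cma2, a chymase gene close to Cma1 in sequence and position, rose by 0.69 (adjusted p = 0.0157), and Gzmb, granzyme B, rose by 1.26 (adjusted p = 0.0398) in 5 of 6 mice. WT mouse 3 had a rich sum of 1101 for Gzmb, against 68.0 to 173 in the other mice. None of the 7 passed without the 85 cells, where Ctsg was at 0.68 (adjusted p = 0.148), Cma2 at 0.34 (0.0842) and Gzmb at 0.83 (0.107). Tpsab1, the tryptase beside Tpsb2, named here after its value was seen, had a log2 fold change of 0.40 (SE 0.21, limma adjusted p = 0.279).

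Of 10 tested genes of histamine and serotonin handling, 3 were higher and 1 lower, with a median of 0.39. All genes tested had 3.09% higher and 4.12% lower. Slc6a4, the serotonin transporter, had 569 to 1062 normalised transcripts in poor sums and 1263 to 1849.6 in rich sums and rose by 0.93 (SE 0.14, limma adjusted p = 0.00339), and Ddc, which forms serotonin, rose by 1.08 (adjusted p = 0.00494). Maob, a monoamine oxidase, rose by 0.72 (adjusted p = 0.0212), while Maoa, the other monoamine oxidase, fell by 1.70 (adjusted p = 0.0391), from 27.1 to 154 in poor sums to 7.88 to 28.4 in rich sums. In the fit without the 85 cells Slc6a4, Ddc and Maoa passed (adjusted p = 0.00699, 0.0195 and 0.0341) and Maob did not (0.119), while Slc6a4 was at 0.63 in cells of low Gm share (0.174).

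Hdc did not follow the proteases. It had 6485, 4372 and 5515 normalised transcripts in the poor cells of the WT mice and 9289, 6524 and 4355 in those of the Tln1ΔMC mice, and 6060, 6136 and 6958 in the rich cells of the WT mice and 6465, 7122 and 5470 in those of the Tln1ΔMC mice. Its log2 fold change was 0.11 (SE 0.16, n = 6 mice, limma adjusted p = 0.737), higher in 4 of 6 mice and in 16 of 30 libraries, and −0.27 without the 85 cells (adjusted p = 0.163).

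**Figure D4:**
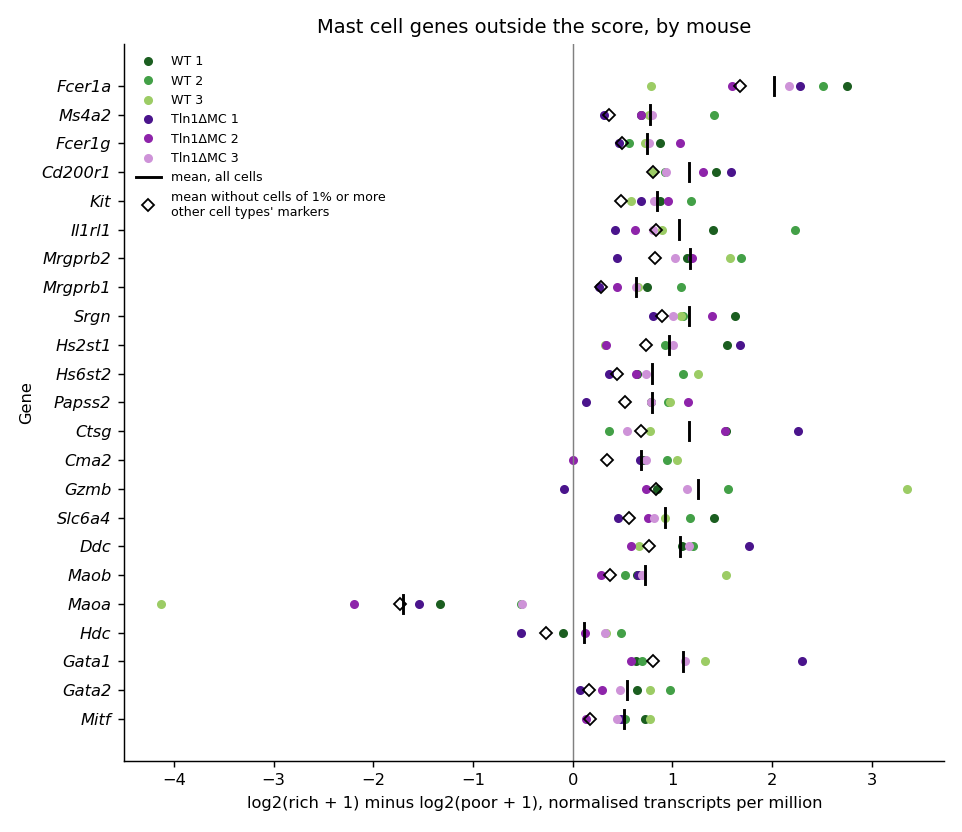
Difference between rich and poor cells, log2(level + 1) with levels in normalised transcripts, for MC genes outside the score. Points are the 6 mice (WT green, Tln1ΔMC purple), black bars their mean, and open diamonds the mean after the 85 cells with at least 1% of other cell types' markers were left out. Fcer1a lies farthest right with a mean of 2.02, Hdc lies at 0.11 and Maoa at −1.70.

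Of 15 tested lineage transcription factors, 3 were higher and 0 lower, beside 3.09% higher and 4.12% lower over all genes. Gata1 had 48.4, 65.9 and 59.2 normalised transcripts in the poor cells of the WT mice and 15.3, 56.3 and 38 in those of the Tln1ΔMC mice, and 75.6, 108 and 149.8 in the rich cells of the WT mice and 78.9, 85.2 and 84.4 in those of the Tln1ΔMC mice. Its log2 fold change was 1.11 (SE 0.26, n = 6 mice, limma adjusted p = 0.0228). Gata2 rose by 0.54 (adjusted p = 0.0391) and Id2, an inhibitor of helix-loop-helix factors, by 0.61 (adjusted p = 0.0306), both with their highest mean level in the middle cells. Mitf, a driver of granule genes in MCs, missed the threshold at 0.51 (SE 0.15, adjusted p = 0.0544) although it was higher in 6 of 6 mice. With the 85 cells left out none of the 15 passed, with Gata1 at 0.80 (adjusted p = 0.0713), Gata2 at 0.16 (0.347), Id2 at 0.31 (0.142) and Mitf at 0.17 (0.475).

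Fcer1a was one of the 12 genes with the largest rises, and the other 11 included regulators of signalling. Rgs13 and Rgs18, which dampen G protein signalling, rose by 1.80 and 1.26 on the log2 scale, from 12.1 to 41.6 and from 71 to 237 normalised transcripts in poor sums to 59.2 to 99.05 and 287 to 525 in rich sums. Clec12b, an inhibitory lectin receptor, rose by 1.66, Ptpn7, a phosphatase of blood cells, by 1.32, Nmb, the peptide neuromedin B, by 1.46, Cst7, the protease inhibitor cystatin F, by 1.42, and Tcn2, the vitamin B12 carrier, by 1.39. Gyg, the primer of glycogen, rose by 1.33 and Pfkm, a phosphofructokinase, by 1.43. Gcsam rose by 1.42 and Rab37, a GTPase of secretory vesicles, by 1.31. All of these 11 were higher in 6 of 6 mice with adjusted p from 0.00257 to 0.0309. When the 85 cells were left out 10 of them passed, and Pfkm was at 1.09 (adjusted p = 0.0853).

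**Figure D5:**
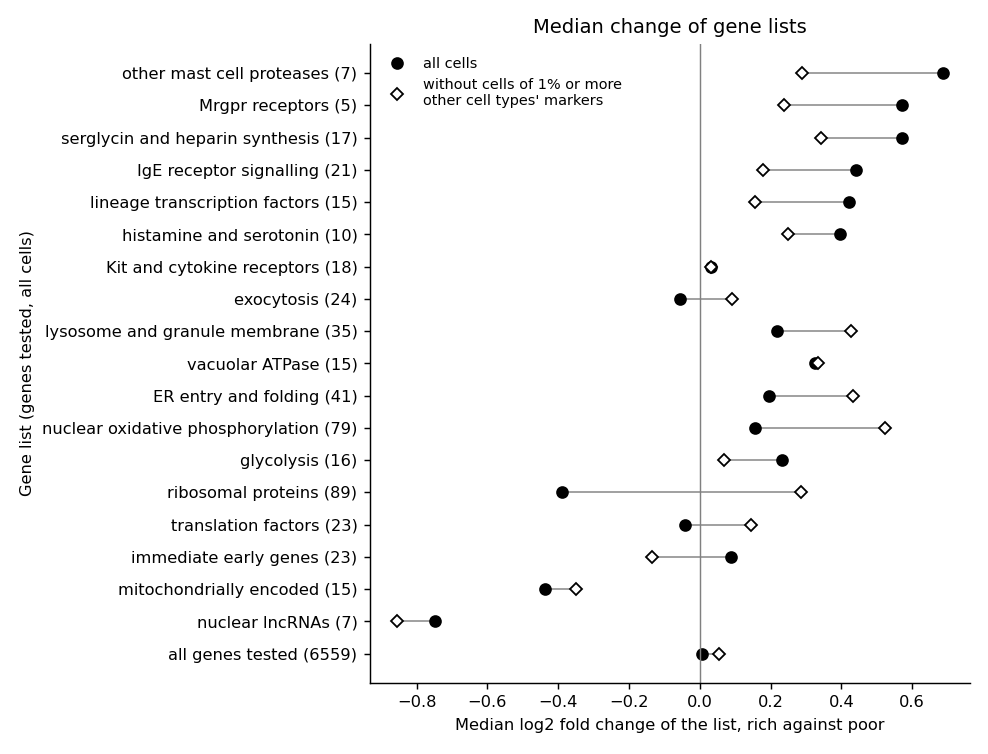
Median log2 fold change of rich against poor cells for 18 gene lists and for all genes tested (linear axis, number of genes tested in parentheses), with all cells as filled circles and without the 85 cells with at least 1% of other cell types' markers as open diamonds. When those cells are left out, other MC proteases move from 0.69 to 0.29 and ribosomal proteins cross 0, from −0.39 to 0.29.

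Secretory and metabolic genes were called in small numbers. Counts are to be read against 3.09% higher and 4.12% lower over all genes, and 3.5% and 5.8% without the 85 cells. Of 35 tested genes of lysosomes and granule membranes, 6 were higher and 2 lower, among them Tpp1 (0.98), Ctsd (0.79) and Laptm5 (0.72), with Ctsl, cathepsin L, lower by 3.34. For entry into and folding in the endoplasmic reticulum, 3 of 41 were higher (Spcs3 by 1.22, Sec11c by 0.90 and Stt3b by 0.70), and for transport to the Golgi 1 of 28, Arf1 (0.58), which missed the threshold without the 85 cells (adjusted p = 0.0505). The other genes named in these lists passed that fit, except Ctsl, which was not tested in it. Of 24 exocytosis genes 3 were higher, Rab37, Unc13d (0.98) and Mlph (0.83), with a median of −0.06. In the fit without the 85 cells 1 of 22 was higher, Rab37, and 2 lower, and Unc13d was at 0.58 (adjusted p = 0.219) and Mlph at 0.39 (0.188). No gene of the vacuolar ATPase (15 tested), of eicosanoid synthesis (8), of iron storage and antioxidants (20), of translation factors (23) or of the cell cycle (8) was called with all cells, whereas with the 85 cells left out 2 of 19 iron and antioxidant genes were higher and 1 lower and 3 of 23 translation factors were higher. Glycolysis had 2 of 16 higher, Gapdh (0.79) and Ldha (0.68), and sterol synthesis 1 of 6, Dhcr7 (2.64), at 0 to 31.8 normalised transcripts in poor sums and 25.8 to 71.4 in rich sums. Gapdh, Ldha and Dhcr7 passed without the 85 cells.

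Several genes of the cytoskeleton rose. Counts of called genes here stand beside 3.09% higher and 4.12% lower over all genes, and 3.5% and 5.8% without the 85 cells. Of 32 genes of intermediate filaments, actin and adhesion, 5 were higher and 0 lower, and without the 85 cells 5 of 31 were higher and 1 lower. Rac2, a GTPase of blood cells that drives actin assembly and degranulation, had 309 to 509 normalised transcripts in poor sums and 672 to 1021 in rich sums and rose by 1.05 (adjusted p = 0.0024), Capzb rose by 0.71, Fermt3, the kindlin of blood cells, by 0.61 and Tln1 by 0.59 (adjusted p = 0.0179). Tln1 rose in the 3 WT mice by 0.27, 0.46 and 0.73 and in the 3 Tln1ΔMC mice by 0.83, 0.48 and 0.76, and passed without the 85 cells (0.46, adjusted p = 0.0204), as did Rac2 and Capzb, while Fermt3 did not (0.32, adjusted p = 0.17). Galectins, annexins and S100 proteins had 2 of 17 higher, Lgals1 (0.77) and Anxa6 (0.68), MHC class I 2 of 9, B2m (0.81) and H2-T23 (0.69), and cytokines and chemokines 1 of 16, Tgfb1 (0.85). With the 85 cells left out Lgals1, B2m and H2-T23 passed, and Anxa6 was at 0.39 (adjusted p = 0.0708) and Tgfb1 at 0.58 (0.0587). Immediate early genes, which also rise on tissue dissociation, had 1 of 23 higher, Klf2 (0.96), and 2 lower, Btg2 (−4.11) and Atf3 (−1.60). NF-κB feedback genes had 1 of 12 lower, Icam1 (−1.02), and heat shock genes 1 of 21, Hspb1 (−3.13). In the fit without the 85 cells Klf2 was at 0.53 (adjusted p = 0.0578), Atf3 at −0.57 (0.185) and Icam1 at −0.30 (0.469), and Btg2 and Hspb1 were not tested. Other members were called lower in that fit, 2 of 20 immediate early genes and 3 of 11 NF-κB feedback genes. Neither list had a higher gene there, and 0 of 20 heat shock genes were called.

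Ribosomal and respiratory genes changed with the cells that were left out. Over all genes, 3.09% were higher and 4.12% lower with all cells, and 3.5% and 5.8% without the 85 cells. With all cells, 0 of 89 ribosomal protein genes were higher and 2 lower, Rpsa (−0.67) and the pseudogene Rpl36-ps3 (−0.85), with a median of −0.39. Without the 85 cells 14 of 89 were higher and 0 lower, with a median of 0.29. Nuclear genes of oxidative phosphorylation had 1 of 79 higher, Atp5f1 (0.99), with a median of 0.16, and 13 of 76 higher with a median of 0.52 without those cells, where the median of all genes was 0.05. Lysosome genes then had 8 of 32 higher and endoplasmic reticulum genes 7 of 40.

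Of 15 mitochondrially encoded genes tested, 0 were higher and 5 lower, with a median of −0.44, beside 4.12% lower over all genes. The count was 6 lower without the 85 cells and 0 of 15 in cells of low Gm share, where the median was −0.53. The ribosomal RNA mt-Rnr1 had 8497 to 36521 normalised transcripts in poor sums and 5523 to 18184 in rich sums and fell by 0.90 (adjusted p = 0.0106) in 6 of 6 mice, and mt-Nd4l, a subunit of complex I, fell by 0.89 (adjusted p = 0.00572). mt-Nd6 was at −1.10 and mt-Nd5 at −0.57 (adjusted p = 0.0226 and 0.0461).

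Of 7 tested long noncoding RNAs of the nucleus, 4 were lower in protease-rich cells and 0 higher, with a median of −0.75. The share of all genes called lower was 4.12%. Without the 85 cells 5 of 6 were lower, beside 5.8% of all genes, and in cells of low Gm share 0 of 5 were called. Kcnq1ot1, an RNA that stays at its own locus on chromosome 7 of GRCm38 (143213111 to 143296547), had 3232, 1339 and 3958 normalised transcripts in the poor cells of the WT mice and 2783, 6788 and 546 in those of the Tln1ΔMC mice. Rich cells had 966, 815 and 1421 in the WT mice and 898, 1280.1 and 313 in the Tln1ΔMC mice. Each mouse was lower in rich cells, although sums of different mice overlapped, with Tln1ΔMC mouse 3 lowest in both classes. The log2 fold change was −1.46 (SE 0.20, n = 6 mice, limma adjusted p = 0.0024) and −1.63 without the 85 cells (adjusted p = 2.85e-05), but −0.24 in cells of low Gm share (adjusted p = 0.69). Without the mouse as a block its adjusted p was 0.125. Neat1 was at −0.58, Mir22hg at −0.75 and Meg3 at −2.47 on the log2 scale, with Neat1 lower in 5 of 6 mice.

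Some loci that bear only clone names, a set chosen after values were seen, were lower. Of 38 tested loci named for BAC clones (RP23 or RP24), 0 were higher and 13 lower, with a median of −1.16, and of 159 RIKEN clone names 2 were higher and 23 lower, with a median of −0.49. Without the 85 cells 26 of 39 and 38 of 144 were lower. Among all genes, 4.12% were lower with all cells and 5.8% without the 85 cells. In cells of low Gm share 0 of 20 and 0 of 81 were called, with medians of −0.45 and −0.21. The share of Gm transcripts differed between the classes in the same direction, and its part in these calls beyond that fit was not tested.

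The largest falls were in genes of other cell types. Fibroblast markers were lower in 6 of 7 tested genes (median −4.11), keratinocyte markers in 6 of 8 (−3.98) and macrophage markers in 6 of 10 (−2.39), beside 4.12% of all genes. Thy1 was lower by 3.93 among T cell markers. Some passed the filter mainly through the poor sums, such as Krt10 with 5.92 to 1844 there and 0 to 31.3 in rich sums. Their transcripts are also in the total that divides the score. The direction is thus partly set by the choice of cells, and these falls are a description. Mural cell, melanocyte and Schwann, and red blood cell markers had 1 gene tested each and 0 called, and no endothelial marker was abundant enough to test. Col1a1, the collagen I α1 chain, had 2002, 13541 and 10046 normalised transcripts in the poor cells of the WT mice and 1094, 296 and 24.8 in those of the Tln1ΔMC mice, and 16.8 to 237 in rich sums. Its log2 fold change was −4.22 (adjusted p = 0.00848), with Tln1ΔMC mouse 3 at 0.36. Dcn was at −4.43, Col3a1 at −4.11 and Sparc at −3.40. Among keratinocyte genes Krt15 was at −4.87, Krt10 at −4.07, Perp at −4.05 and Krt5 at −3.94, and among macrophage genes Csf1r was at −3.20, H2-Ab1 at −2.64, H2-Aa at −2.24 and C1qb at −1.84. Stromal and epithelial genes outside these lists, Cilp, Gas1, Clca3a1, Nfib, Igfbp7, Timp3, Dab2 and Clic4, had log2 fold changes of −5.18 to −3.21, with sums at 0 in some rich classes. In the fit without the 85 cells no marker of these lists was called. Those cells were chosen by these same markers, so the loss of calls is part of the choice. The fit tested 4 macrophage, 5 fibroblast, 3 keratinocyte and 0 T cell markers, and Csf1r, Krt10, Krt15, Perp and Thy1 were not tested in it. Col1a1 was at −0.44 (adjusted p = 0.36), Krt5 at 0.57 (0.731) and H2-Ab1 at −0.66 (0.224).

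Tln1ΔMC mouse 2 had the fewest transcripts of other cell types, 0.111% in its poor and 0.0763% in its rich sum. In this mouse the difference of rich and poor cells on the log2 scale was 1.597 for Fcer1a, 1.40 for Srgn, 1.202 for Mrgprb2, 0.96 for Kit, 1.33 for left-out Cma1 and 1.40 for left-out Cpa3. Smaller differences there were 0.604 for left-out Mcpt4, 0.30 for Gata2, 0.136 for Mitf, 0.00193 for Cma2 and −0.113 for Id2. Tln1ΔMC mouse 2 had the widest gap in Gm share, with medians of 70.7% in poor and 19.3% in rich cells. Tln1ΔMC mouse 3 had the narrowest, 9.21% and 7.09%, and there Fcer1a went from 132 to 597 normalised transcripts and the differences were 1.01 for Srgn, 1.03 for Mrgprb2, 0.81 for Kit, 1.53 for left-out Cma1 and 1.203 for left-out Cpa3. Other cell types' markers made up 1.28% of its poor sum. The part of these markers and of the Gm share in the differences of either mouse was not tested.

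The contrast of rich and poor cells was not shown to differ between genotypes. Of 6559 genes, 0 (0%) passed the interaction test of limma, 3 mice against 3, and 326 had an unadjusted p under 0.05. The count was 2 with voom weights and 5 without Tln1ΔMC mouse 1. For Fcer1a the mean difference was 2.02 in both genotypes, with an SE of 0.46 for the difference between them. Il1rl1 had a mean difference of 1.51 in WT and 0.62 in Tln1ΔMC mice (interaction adjusted p = 0.844), and Mrgprb2 one of 1.47 and 0.89 (adjusted p = 0.844). Left-out Cma1 differed by 1.63 in WT and 1.39 in Tln1ΔMC mice, and left-out Cpa3 by 1.31 and 1.32. Of the genes named, Sparc had the smallest interaction adjusted p, 0.457, at −5.30 in WT and −1.50 in Tln1ΔMC mice.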

How the data were processed

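Transcriptomes of single sorted cells were measured by mCEL-Seq2. Per the labels and the paper's methods, the authors demultiplexed reads (bcl2fastq 2.17.1.14), aligned them with BWA 0.6.2-r126 to the transcripts of ENCODE VM9 (mm10), discarded reads of several loci and converted UMIs per gene and well into transcripts by binomial statistics. The values deposited by the authors are corrected transcript counts without scaling for depth; 100% of 5144966 values above 0 gave whole UMIs for 4096 UMI codes within 1e-06. Tables hold 192 well barcodes, the same in each library by design, of which a set of 96 was in use; 5 of the cells used lay outside it. No doublet caller was run. The gate excluded doublets, but 85 cells held at least 1% of other cell types' markers, and whether these were doublets was not tested. The paper left out a small cluster of MCs with macrophage features. No clusters were formed here, and such cells were kept except in the fits that name their removal.

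Cells over 1000 transcripts outside Gm genes were kept. Rich and poor cells were summed per mouse, for 12 sums of 146770.5 to 1474290.3 transcripts before the 4 proteases were left out. Genes with at least 10 transcripts, rich and poor cells together, in at least 3 of 6 mice were compared on log2(normalised transcripts per 1000000 + 1) with limma 3.58.1 (trend, R 4.3.3) after TMM scaling, with the mouse as a block, since both sums come from the same animal. Rich and poor sums of a mouse deviated together (correlations across 3613 genes of 0.28 to 0.57). P values were adjusted by Benjamini-Hochberg over all genes tested, and the procedure was tested on simulated data. Mice are the replicates; the mouse numbers were taken from the library titles.

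The rule for the cells, the 38 gene lists, the 4 markers and the tests were chosen with earlier results of these data known. The genes named were the 4 proteases, 8 fixed MC genes, the 12 largest changes in each direction (adjusted p under 0.05, the same direction in 6 mice, mean level of at least 50), and up to 4 genes of each list. Alternatives covered scaling, weights, pseudocount, filters, score, cut, depth, cells, libraries, mice and block. Imaging and flow cytometry were not used here.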

Additional observations from a re-analysis of the deposited data

Results flagged for a closer look

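For each of 98 named results, the 6 differences between rich and poor cells, 1 per mouse, were searched for a value far from the other 5, and 7 were found, where chance gives about 1 in 20. Pfkm had a log2 difference of 3.71 in Tln1ΔMC mouse 2 and 0.46 to 1.48 in the other mice. Cma2 had 0.00193 in Tln1ΔMC mouse 2 and 0.68 to 1.04 in the others. Laptm5 had 0.222 in that mouse and 0.70 to 0.97 in the others. Papss2 had 0.13 in Tln1ΔMC mouse 1 and 0.78 to 1.16 in the others. Maob had 1.54 in WT mouse 3 and 0.29 to 0.70 in the others. mt-Rnr1 had −1.7 in Tln1ΔMC mouse 3 and −1.01 to −0.59 in the others. Krt15 had 0 in Tln1ΔMC mouse 1, where it was at 0 in both classes, and −6.97 to −4.47 in the others.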

How the results depend on the processing

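With other settings the count of genes higher in rich cells, 203, was 376 without TMM, 356 with voom weights, 92 with no filter on low genes, 129 with at least 50 transcripts in 3 mice, 440 with Gm genes kept, 104 when score and test used separate UMIs, 56 after thinning to 1000 UMIs and 105 in cells over 2000 transcripts. For genes lower in rich cells, 270, the matching counts were 634 with voom weights, 52 with no filter, 749 with Gm genes kept, 78 with separate UMIs, 107 after thinning, 103 in cells over 2000 transcripts and 447 with means over cells. Without the mouse as a block, which pairs both sums of an animal, they were 75 and 60. Leaving out 1 mouse gave 83 (WT mouse 1) to 144 higher and 113 (WT mouse 1) to 241 lower genes. Chosen after seeing the data, the cells under the median Gm share gave 1 higher and 2 lower, and 6 and 10 when cells with 1% of other markers were also left out. The smaller sets hold fewer transcripts, and otherwise the cause was not tested. The interaction of genotype, 0 genes, was 2 with voom weights, 2 with same-numbered mice paired as a block (their differences correlated at −0.16 to 0.06, so that they share only a number), and 0 to 5 without 1 mouse (5 without Tln1ΔMC mouse 1). Left-out Mcpt4 missed the threshold at 0.968 without the block, 0.99 under the median Gm share, 0.694 when other markers were also left out and 0.923 without WT mouse 1 (0.912 to 1.03 over the mice left out), and left-out Cpa3 at 1.18 under the median Gm share. Signs turned under the median Gm share without other markers for Gata2 (−0.177), Clec12b (−0.221), Kcnq1ot1 (0.0389), H2-Ab1 (0.466), Col1a1 (0.696), Rpl36-ps3 (0.143) and Rpsa (0.216), and without the 85 cells for Krt5 (0.575) and Rpsa (0.0905, and 0.099 at a limit of 0.5%). Hdc, not called, turned with 3 classes of equal size (−0.00457), within depth classes (−0.04), thinned (−0.168), without the 85 cells (−0.267), at the 0.5% limit (−0.277), with 4 libraries of Tln1ΔMC mouse 3 (−0.00258), under the median Gm share (−0.0123, and −0.385 without other markers) and with means (−0.181). No adjusted p passed where a sign turned. Of the values of named genes under alternatives, 2323 kept direction and side of the threshold, 598 lost the call, 7 gained one and 19 turned. A limit on Kcnq1ot1 removed 0 cells.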
